A study of Rattus norvegicus with 49 samples.

Results

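Livers of rats given 60% less food were compared between day 14 and day 4 of the restriction. The comparison used the 10 samples labelled group 5, 5 rats at each day, out of 49 samples in the series, and it covered all 14217 genes with a value of their own on the array. The rats were male Sprague-Dawley, 8 to 10 weeks old at the start, and each gave 1 liver sample, so that the rats of day 14 were other animals than those of day 4 and were 10 days older. Group 5 received 40% of the food that freely fed rats ate and was fasted overnight before sampling. Group 2, with 10 rats, had free access to the same powdered feed and was also fasted overnight; its difference between the days stands beside that of group 5 as the reference for anything that moved with the day alone, such as age or a batch. The groups 1 (free feeding without the fast), 3 (15% less food) and 4 (30% less food) are given side by side where they help. Neither the hour of sampling nor the dates of the arrays were among the sources used here, and apart from the day no label could mark a batch.

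The liver answers to food mainly through insulin and glucagon. After a meal, insulin raises the transcription factor Srebf1 and with it the making of fatty acids, and it keeps the FoxO factors out of the nucleus. In the fast FoxO and its partner Ppargc1a (PGC-1α) return and drive genes of gluconeogenesis, as well as Igfbp1, a binding protein of insulin-like growth factors, and Irs2, which carries the signal of the insulin receptor. Cholesterol is sensed separately, through Insig1 and the factor Srebf2. The circadian clock runs beside these and follows the hour of feeding. All of these respond within hours, so the level in a fasted animal also depends on when it last ate.

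Intensities were compared as log2 values, on which 1 unit is a doubling. A gene was called when its adjusted p was under 0.1 in limma, a linear model that shares the estimate of the spread across genes. Each rat correlated with the others of its group and day at a median of 0.9905 to 0.9934 over all genes, and the median spread between rats was an SD of 0.128 in group 5 at day 4, 0.148 in group 5 at day 14, and 0.124 and 0.138 in group 2. On the first principal component of the 20 rats, which held 34.1% of the variance, group 2 lay between −19.6 and −10.7 on both days. Group 5 lay between −3.4 and 13.7 at day 4 and between 18.2 and 31.6 at day 14, so that the days did not overlap in group 5 and did overlap in group 2. Among the rats of day 14, rat 769 lay lowest on this component and had −12.6 on the second one, against 4.7 to 9.5 in the other 4.

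**Figure D1:**
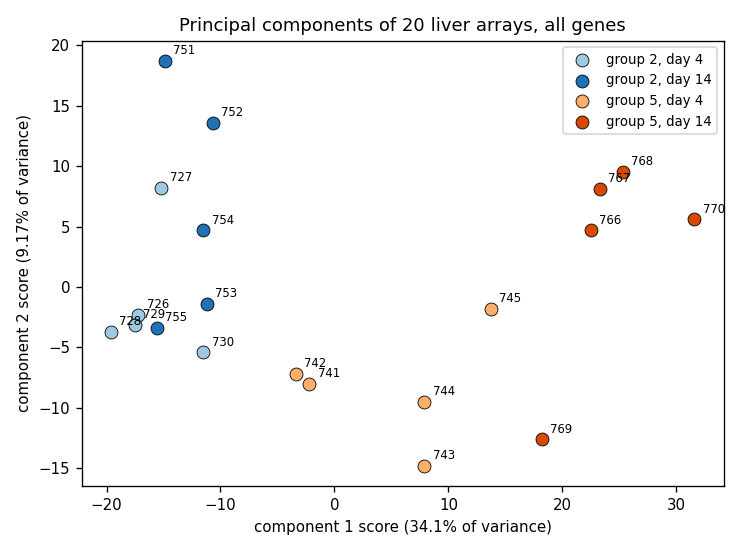
Scores of 20 liver arrays on the first component (horizontal, 34.1% of the variance) and the second (vertical, 9.17%) of all genes; each point is 1 rat with its subject number. Group 2 stays below −10 on the horizontal axis on both days, group 5 at day 4 reaches 13.7 and group 5 at day 14 starts at 18.2.

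Between day 4 and day 14 of the 60% restriction, 555 of 14217 genes rose (3.9%) and 399 fell (2.81%). Of these, 37 rose and 39 fell by more than 2-fold, and the 5 rats of one day lay wholly above the 5 of the other for 337 of the genes that rose and 250 of those that fell. Such a separation was seen for 5.57% of all genes in group 5 and for 1.54% in group 2. In group 2 the same comparison called 1 gene higher (0.00703%) and 0 lower (0%), with 1230 genes at an unadjusted p under 0.05 against 2698 in group 5. The gene called in group 2 was Jam3, an adhesion molecule of tight junctions, at 7.44, 7.56, 7.50, 7.38 and 7.47 at day 4 and 7.98, 7.89, 7.95, 7.95 and 8.10 at day 14 (log2 change 0.51, adjusted p = 0.0333); in group 5 its difference was 0.13 (adjusted p = 0.38). The difference between the 2 day differences was tested by itself over the 20 rats. It was called positive for 120 genes (0.844%) and negative for 170 (1.2%), and quantile normalization applied again turned this split into 200 and 186, and array weights into 237 and 224. Fits without 1 rat gave 38 to 176 positive and 60 to 220 negative. Of the 954 genes called in group 5, 235 were also called in this test, 108 that rose and 127 that fell; for the other 719, the data do not show that the day difference differed from that of group 2. The count within group 5 also rested on which rats were in it. Without rat 742 of day 4 it was 243 higher and 168 lower, without rat 768 of day 14 it was 278 and 206, and without rat 769 of day 14 it was 943 and 555. Without rats 741, 766 or 770 in turn, the higher count was 330, 354 and 411 and the lower 256, 297 and 237.

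Most called genes had moved farther from group 2 by day 14. The size of the difference between group 5 and group 2 was larger at day 14 than at day 4 for 493 of the 555 genes that rose (88.8%) and for 345 of the 399 that fell (86.5%), against 60.9% of all genes. Its median went from 0.14 to 0.40 in the genes that rose and from 0.16 to 0.45 in those that fell. The genes were chosen on the same group 5 values, so these shares are a description. Over all genes, the day difference in group 5 correlated with that in group 2 at 0.145, in group 1 at 0.025, in group 3 at 0.381 and in group 4 at 0.558. These correlations are across genes, which are not independent replicates, and every pair shares the same days. More than 2-fold differences between days were seen for 11 genes in group 1, 18 in group 2, 83 in group 3, 78 in group 4 and 105 in group 5.

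**Figure D2:**
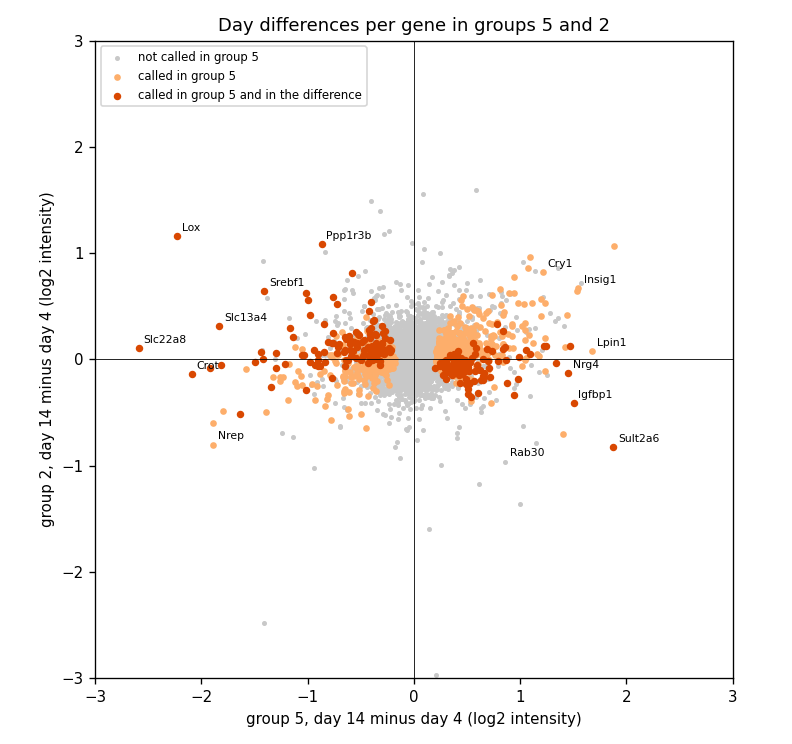
Each point is 1 gene, with its day 14 minus day 4 difference in group 5 (horizontal, log2 intensity) and in group 2 (vertical, log2 intensity); light orange marks genes called in group 5 and dark orange those also called in the test of the difference between the groups. The cloud is wider along the group 5 axis, with Slc22a8 at −2.59 and Sult2a6 at 1.88, while most genes called in group 5 lie near 0 on the group 2 axis.

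Irs2 and Igfbp1, which insulin holds down, both rose. Irs2 stood at 8.20, 8.01, 8.15, 8.45 and 8.78 in the rats of day 4 and at 10.28, 9.41, 9.86, 9.34 and 10.07 in those of day 14, without overlap (log2 change 1.47, standard error 0.19, adjusted p = 0.00682). In group 2 it was 8.24 to 8.59 at day 4 and 7.93 to 8.89 at day 14, so that group 5 at day 4 lay at the level of group 2 and left it by day 14 (difference of the day differences 1.35, adjusted p = 0.0243). Igfbp1 stood at 10.71, 10.82, 11.28, 11.87 and 12.49 at day 4 and at 13.06, 12.49, 13.65, 12.03 and 13.46 at day 14 (log2 change 1.5, standard error 0.37, adjusted p = 0.0499). The days overlapped for Igfbp1, and the call was lost without rat 741, 742, 743, 768 or 770. Its difference in group 2 was −0.41, and the difference between the groups was 1.92 (adjusted p = 0.0536), a call that the fit of all 49 rats did not keep. The other 16 measured members of the list of insulin signalling and FoxO targets were not called, among them Igfbp2 (1.28, adjusted p = 0.278) and Sesn1 (0.94, adjusted p = 0.144), and the list's median of 0.08 lay near that of all genes (−0.009).

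The stretch before the start of Igfbp1 is shown because this gene carries the best known insulin response sequence in the liver. RefSeq places the 250 bases before its start on build GRCr8 at chr14:86261027-86261276 on the plus strand, written 5′ to 3′ with matches to TNTTTTG, searched on both strands, in capitals.

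Igfbp1: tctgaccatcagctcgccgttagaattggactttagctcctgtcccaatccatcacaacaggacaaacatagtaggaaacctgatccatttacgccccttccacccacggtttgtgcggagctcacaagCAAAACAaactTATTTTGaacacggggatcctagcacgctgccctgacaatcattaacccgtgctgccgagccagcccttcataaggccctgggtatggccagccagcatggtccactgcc

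The first match lies at −121 and reads CAAAACA on this strand, the second at −110 and reads TATTTTG. Of 27457 promoter stretches of this length in the table, 17.2% hold at least 1 such match, so that a match by itself says little.

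Lpin1, Ppargc1a and Pdk4 rose as well, while Pck1 (0.05), Cpt1a (−0.10) and Fgf21 (−0.67, adjusted p = 0.236), other genes of the fasted liver, were not called. In group 2 the differences of Lpin1, Ppargc1a and Pdk4 were 0.08, 0.12 and 0.03. Unlike Irs2, they were not called in the test of the difference between the groups (adjusted p = 0.162, 0.198 and 0.271). Each also lost its call in group 5 under robust variance. Lpin1, a phosphatidate phosphatase that also works with Ppargc1a, was at 8.78, 10.70, 10.65, 10.87 and 11.07 at day 4 and at 11.97, 12.41, 11.73, 11.28 and 13.07 at day 14 (log2 change 1.68, standard error 0.43, adjusted p = 0.055). Rat 741 lay well below the others of its day, and the call was lost without rat 742, 767 or 770. Its relative Lpin2 rose by 0.92 (adjusted p = 0.022). Ppargc1a rose by 1.43 (standard error 0.38, adjusted p = 0.0645), from 6.83 to 8.61 at day 4 to 8.35 to 10.21 at day 14, with overlap. Its 3 probe sets gave 1.43, 1.5 and 1.60, and the call was kept in 4 of 10 fits without 1 rat. Pdk4, the kinase that turns pyruvate dehydrogenase off, was at 9.44, 8.98, 8.70, 9.40 and 9.06 at day 4 and 10.00, 9.68, 10.35, 11.60 and 9.83 at day 14 (log2 change 1.17, standard error 0.31, adjusted p = 0.0624; lost without rat 742, 743 or 768). Pdk4 is unlike Irs2 in its starting point: group 2 had means of 10.75 and 10.78 on the 2 days, so that group 5 lay 1.63 below group 2 at day 4 and 0.49 below it at day 14.

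Of 17 measured genes of gluconeogenesis, 3 rose and 2 fell. Those that rose were Ppargc1a and the transaminases Gpt (0.57, adjusted p = 0.0546) and Tat (0.56, adjusted p = 0.0567). Ldha, lactate dehydrogenase A, fell by 0.90 (standard error 0.17, adjusted p = 0.0195) and pyruvate carboxylase Pc by 0.38 (adjusted p = 0.0167). The list's median was 0.29 in group 5 and 0.12 in group 2. In glucose use, 4 of 19 rose and 1 fell: Pdk4, Pdha1 (0.47), Gpi (0.43) and the glucose transporter Slc2a2 (0.40) rose, and Gckr, the protein that holds glucokinase in the nucleus, fell by 1.03 (adjusted p = 0.0604). For Gckr the difference from group 2 was called as well (−1.07, adjusted p = 0.0949), but it was kept in 4 of 20 fits without 1 rat and lost under robust variance; the call within group 5 was kept in 6 of 10. In glycogen metabolism Ppp1r3b, which brings protein phosphatase 1 to glycogen, fell by 0.87 (adjusted p = 0.0519) and the phosphorylase Pygl by 0.54 (adjusted p = 0.0732); the other 8 members were not called.

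Of 13 measured genes of fatty acid synthesis, 4 fell and 0 rose. Srebf1 was at 12.02, 11.81, 11.31, 10.88 and 10.88 at day 4 and at 10.31, 10.45, 9.98, 9.64 and 9.49 at day 14, without overlap (log2 change −1.41, standard error 0.25, adjusted p = 0.017). A second probe set of the gene gave −1.22. In group 2 it ran the other way, with a mean of 9.59 at day 4 and 10.24 at day 14 (difference 0.64), and the difference between the groups was −2.05 (adjusted p = 0.0243). Group 5 thus lay 1.79 above group 2 at day 4 and 0.27 below it at day 14. Thrsp, which promotes fatty acid synthesis, fell by 0.58 (adjusted p = 0.0258) while its difference in group 2 was 0.81. Gpam, the first enzyme of glycerolipid synthesis, was at 6.69 to 7.18 at day 4 and 6.11 to 6.44 at day 14 (log2 change −0.61, adjusted p = 0.0144), and was also called in the test of the difference (−0.83, adjusted p = 0.0173). Me1, a source of NADPH, fell by 0.91 (adjusted p = 0.0545). The other 9 of 13 members were not called, including Fasn (−0.01) and Acaca (0.10), the enzymes that carry the pathway, and Acss2 (0.86, adjusted p = 0.101).

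In the list of fatty acid desaturation and elongation, which also holds the thioesterases Acot1 and Acot2, 4 of 14 genes fell and 0 rose. Elovl5 fell by 1.21 (standard error 0.27, adjusted p = 0.0313), from 11.38 to 12.83 at day 4 to 10.45 to 11.33 at day 14. Fads2 fell by 0.65, Fads1 by 0.57 and Elovl2 by 0.45, beside group 2 differences of −0.28, −0.22 and −0.64; Elovl5, Elovl2, Fads1 and Fads2 all serve the making of polyunsaturated fatty acids. The Δ9 desaturase Scd had a difference of 1.33 (adjusted p = 0.158), upward and not called. The calls of Fads1 and Fads2 were kept in 3 and 2 of 10 fits without 1 rat.

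The largest fall without overlap was that of an enzyme that handles fatty acids for oxidation. Crot, carnitine octanoyltransferase, which passes shortened fatty acids from peroxisomes to mitochondria, was at 11.98, 12.60, 11.55, 10.67 and 10.93 at day 4 and at 9.81, 9.67, 9.07, 9.87 and 8.89 at day 14 (log2 change −2.09, standard error 0.34, adjusted p = 0.0143, a 4.24-fold fall). The rats of group 2 stayed between 12.16 and 12.74 on both days, and the difference between the groups was −1.95 (adjusted p = 0.0243). A second bright probe set fell by 2.03, and a dim one gave 0.20; with the mean of the 3 the call against group 2 was lost. In the other diets the day difference of Crot was 0.03 in group 1, −1.45 in group 3 and −1.52 in group 4. The other 14 measured peroxisomal genes were not called. Fabp7, a fatty acid binding protein first known from brain, fell by 1.80 (standard error 0.29, adjusted p = 0.0144), from 11.51 to 12.62 at day 4 to 9.91 to 11.39 at day 14. Its difference in group 2 was −0.49, and Fabp7 was not called in the test of the difference between the groups. Of the mitochondrial oxidation genes, Etfdh fell by 0.46 (adjusted p = 0.0153; −0.23 in group 2) and Acadl by 0.23 (−0.24 in group 2), Ppargc1a rose, and 17 of 20 were not called.

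Ketone body genes had the lowest median of the lists, −0.45 over 6 members against −0.13 in group 2. Bdh1, which turns acetoacetate into 3-hydroxybutyrate, was at 12.15, 11.87, 11.61, 11.54 and 11.54 at day 4 and at 10.98, 10.76, 10.03, 10.71 and 9.49 at day 14 (log2 change −1.35, standard error 0.25, adjusted p = 0.0195). Slc16a1, the monocarboxylate carrier MCT1, fell by 0.77 (adjusted p = 0.0132). Both were called in the test of the difference from group 2, Bdh1 at −1.09 (adjusted p = 0.084) and Slc16a1 at −0.59 (adjusted p = 0.0975). That call was kept in 7 of 20 fits without 1 rat for Bdh1 and in 6 for Slc16a1; it was lost for Bdh1 under robust variance, and for Slc16a1 in the fit of all 49 rats and with the mean of probe sets. For Slc16a1 a second, dim probe set showed no difference. Glycerol kinase Gk, whose links in the study's interaction network had high edge betweenness, fell by 1.26 (standard error 0.28, adjusted p = 0.0314); among 20 measured genes that the study singled out (nodes of that network, steroid genes and enzymes particular to the rat), Gulo, which makes vitamin C, fell as well (−0.47, adjusted p = 0.0313), and 18 were not called.

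Of 13 measured genes of sterol sensing, uptake and export, 2 rose, 2 fell and 9 were not called. Insig1, which holds the sterol sensor SCAP in the endoplasmic reticulum and is itself a target of Srebf2, was at 10.22, 10.83, 11.29, 10.24 and 11.08 at day 4 and at 12.17, 12.09, 12.39, 11.84 and 12.91 at day 14 (log2 change 1.55, standard error 0.24, adjusted p = 0.011). In group 2 it ran from 9.18 to 10.26 at day 4 and from 9.36 to 10.87 at day 14 (difference 0.67, not called), and the test of the difference between the groups was not passed (0.88, adjusted p = 0.335). Of 17 genes of cholesterol synthesis 3 rose, 0 fell and 16 had a positive difference, with a median of 0.61 (0.19 in group 2). Tm7sf2, a sterol reductase, rose by 1.24 (standard error 0.24, adjusted p = 0.0198), Pmvk, phosphomevalonate kinase, by 0.73 (adjusted p = 0.0175) and the isomerase Ebp by 0.49 (adjusted p = 0.057). The difference of Sqle (1.57) was larger than these, and those of Idi1 (1.14) and Msmo1 (1.14) were larger than those of Pmvk and Ebp. Sqle, Idi1 and Msmo1 were not called (adjusted p = 0.15, 0.192 and 0.214). In group 2 their differences were 0.72, 0.84 and 0.29, and those of Tm7sf2, Pmvk and Ebp were 0.20, 0.19 and 0.03. None of the 17 was called in the test of the difference from group 2. The carrier Stard4 rose by 0.68 (adjusted p = 0.077; kept in 2 of 10 fits without 1 rat).

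Abcg5 and Abcg8, the partners of the pump that sends cholesterol into bile, both fell. Abcg5 was at 9.89, 9.16, 10.21, 9.73 and 9.58 at day 4 and at 9.01, 8.53, 8.61, 9.21 and 9.0 at day 14 (log2 change −0.84, standard error 0.18, adjusted p = 0.0313). Abcg8 was at 7.35, 6.52, 7.96, 7.19 and 7.14 at day 4 and at 6.17, 5.73, 6.43, 6.02 and 6.74 at day 14 (log2 change −1.01, standard error 0.24, adjusted p = 0.0422). The exporters Abca1 (−0.37, adjusted p = 0.609) and Abcg1 (0.04, adjusted p = 0.914) were not called. In Abcg5 and Abcg8, 1 rat of day 4, rat 742, lay within the range of day 14. In group 2 the differences were 0.34 and 0.62, and the difference between the groups was −1.18 for Abcg5 (adjusted p = 0.0277) and −1.64 for Abcg8 (adjusted p = 0.0243). The 2 genes lie head to head and share the stretch between their starts, which is shown for this reason. RefSeq places it on build GRCr8 at chr6:15717731-15717935, 205 bases, given on the plus strand, on which Abcg5 is read. Matches to the GATA element AGATAA, searched on both strands, are in capitals.

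Abcg5 and Abcg8: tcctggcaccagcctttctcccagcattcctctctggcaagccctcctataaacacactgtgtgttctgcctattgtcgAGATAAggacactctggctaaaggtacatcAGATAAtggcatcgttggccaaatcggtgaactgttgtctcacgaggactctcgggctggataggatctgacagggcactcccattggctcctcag

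The matches lie at −126 and −96 from the start of Abcg5. Such a match is found in 10.0% of the promoter stretches of 250 bases. In the list of bile acid synthesis and transport, Abcb4, which moves phosphatidylcholine into bile, fell by 0.65 (adjusted p = 0.0511), as did the uptake carrier Slco1b2 by 0.35 and Hsd3b7 by 0.66, while the receptor Fgfr4 rose by 0.28; 15 of 19 were not called.

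Clock genes that changed all rose. Cry1, a repressor of the clock, was at 7.18, 7.14, 7.63, 8.04 and 8.34 at day 4 and at 8.75, 9.04, 9.06, 8.54 and 9.0 at day 14 (log2 change 1.21, standard error 0.22, adjusted p = 0.0172). In group 2 the rats spread from 6.27 to 7.89 at day 4 and from 7.26 to 9.20 at day 14, a difference of 0.82 that was not called. Rora, an activator of Bmal1, rose by 0.74 (adjusted p = 0.011; a dim second probe set gave −0.08), Per1 by 0.63 (adjusted p = 0.0296), the kinase Csnk1d by 0.43 and the repressor Nr1d2 by 0.40. The other 9 of 14 core genes were not called, with Bmal1 at −0.05, Npas2 at −0.72 and Per3 at 0.51. Among factors that the clock drives, 6 of 12 rose and 0 fell, and the median was 0.52 against 0.17 in group 2. Nfil3, a repressor, was at 8.42, 8.10, 8.18, 8.81 and 9.05 at day 4 and at 9.47, 9.62, 10.05, 9.63 and 9.57 at day 14 (log2 change 1.16, standard error 0.18, adjusted p = 0.011). Group 2 had means of 9.65 and 9.70, so that group 5 lay 1.14 below group 2 at day 4 and 0.03 below it at day 14. Noct, nocturnin, whose level follows the clock in liver, rose by 1.10 (adjusted p = 0.034) and Bhlhe41 by 1.04 (adjusted p = 0.0747). The kinase Wee1 rose by 0.93 (adjusted p = 0.0327), Klf10 by 0.81 and Klf9 by 0.34. In group 2 the differences were 0.96 for Noct and 0.41 for Klf9, against −0.01 for Bhlhe41, 0.11 for Wee1 and 0.03 for Klf10. Dbp had a difference of 0.30 (adjusted p = 0.326). For these 11 genes the difference from group 2 was not called, and since the hour of sampling was not given, a shift of that hour between the days cannot be told apart from the day.

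**Figure D3:**
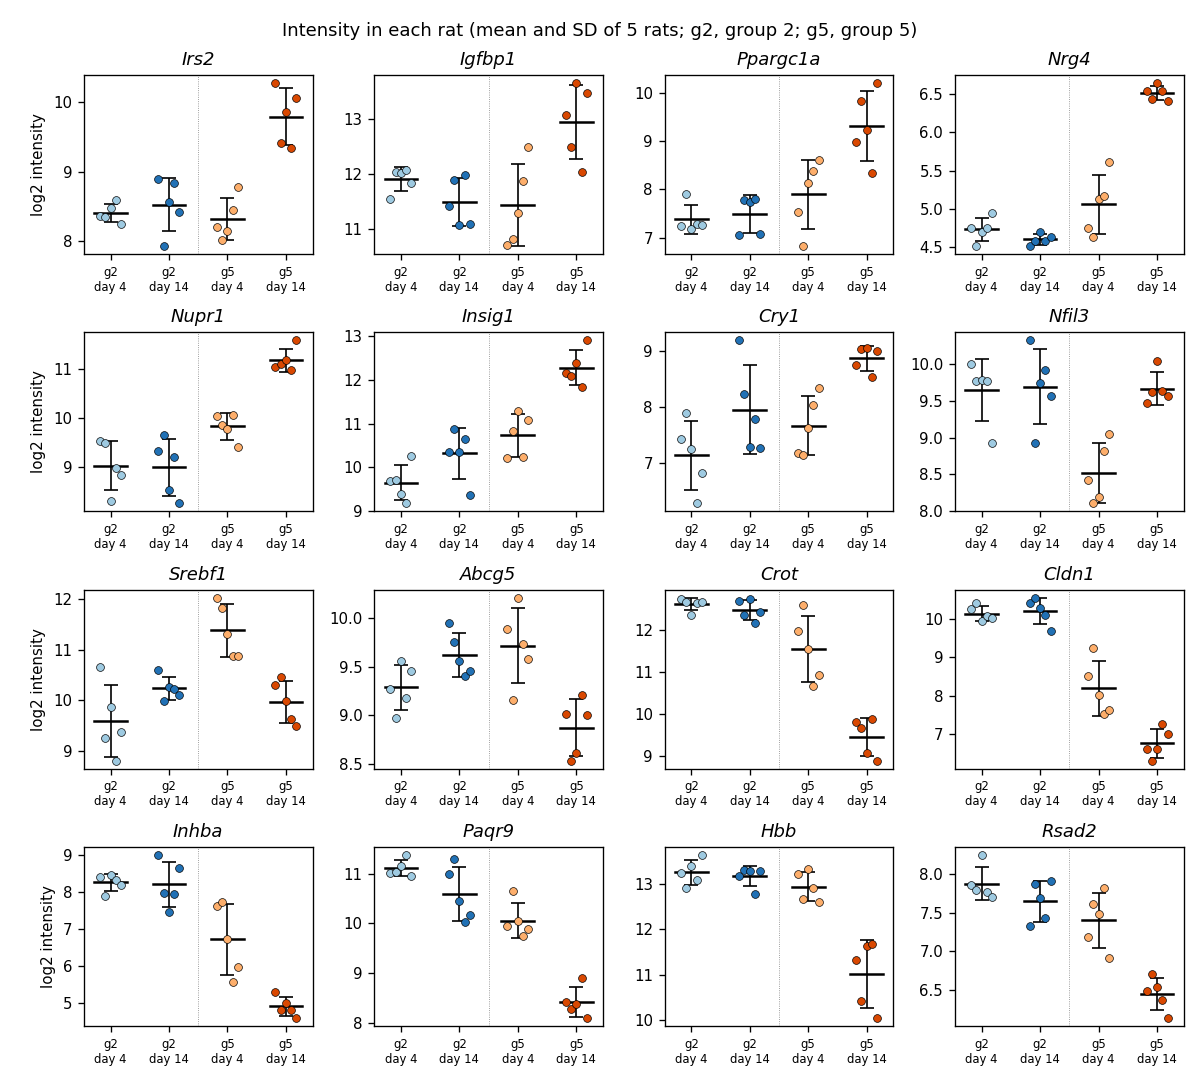
Log2 intensity (vertical) of 16 genes in each of 20 rats, in 4 columns per panel: group 2 at days 4 and 14 and group 5 at days 4 and 14; bars give the mean and SD of 5 rats. Irs2, Nrg4 and Nupr1 in group 5 at day 14 lie above all other columns, the means of Crot, Cldn1 and Paqr9 step down from group 2 to group 5 at day 4 and again to day 14, and Nfil3 and Srebf1 return towards group 2.

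Nrg4 and Nupr1 rose without overlap. Nrg4, neuregulin 4, a ligand of the receptor ErbB4, was at 4.75, 4.64, 5.13, 5.17 and 5.61 at day 4 and at 6.54, 6.43, 6.64, 6.54 and 6.41 at day 14 (log2 change 1.45, standard error 0.15, adjusted p = 0.00355). Group 2 stayed between 4.52 and 4.95. These values and all 5 of group 5 at day 4 lie below 5.681, the bound under which the dimmest 25% of genes lie, so that the size of the rise is uncertain (difference between the groups 1.58, adjusted p = 0.000435). Nupr1, a small nuclear protein of the stress response, was at 10.05, 9.86, 9.77, 10.07 and 9.41 at day 4 and at 11.04, 11.09, 11.18, 10.97 and 11.58 at day 14 (log2 change 1.34, standard error 0.14, adjusted p = 0.00355; difference from group 2 1.38, adjusted p = 0.0717). In the list of integrated stress response targets Ddit3 rose by 0.44 and the factor Atf5 fell by 0.93 (adjusted p = 0.0197), and 16 of 19 were not called. Maff, a small MAF factor, rose by 1.24 (standard error 0.19, adjusted p = 0.0115) from 4.75 to 5.29 to 5.61 to 6.73, again near the dim end. Id1, an inhibitor of helix-loop-helix factors that BMP signals induce, was at 6.97 to 7.43 at day 4 and at 7.81, 9.14, 8.61, 8.22 and 8.04 at day 14 (log2 change 1.22, standard error 0.21, adjusted p = 0.015; difference from group 2 1.10, adjusted p = 0.0468). Hamp, hepcidin, which BMP signals also induce and which limits the entry of iron, rose by 1.08 (adjusted p = 0.015), but its difference in group 2 was 0.86 and the groups did not differ by the test (0.21, adjusted p = 0.885).

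Sult2a6, a hydroxysteroid sulfotransferase, had the largest rise without overlap. It was at 8.03, 9.40, 10.00, 10.05 and 9.98 at day 4 and at 11.02, 11.20, 11.40, 11.73 and 11.50 at day 14 (log2 change 1.88, standard error 0.34, adjusted p = 0.0172, a 3.67-fold rise). In group 2 the difference was −0.82, and the difference between the groups was 2.70 (adjusted p = 0.0506), the largest among the genes called there. The Sult2a genes of the rat are close copies, so its probes may read more than 1 of them; Sult2a1, at 4.00 to 4.32 among the dimmest genes, had a difference of 0.02. Among 23 measured conjugating enzymes Sult1e1 fell by 0.63, Nat1 by 0.52 and Sult1c3 by 0.52, and 20 were not called.

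Several secreted and membrane proteins fell. Inhba, the βA chain of activins, was at 7.61, 7.72, 6.73, 5.55 and 5.95 at day 4 and at 5.29, 4.81, 5.00, 4.81 and 4.58 at day 14 (log2 change −1.82, standard error 0.37, adjusted p = 0.024). Group 2 had means of 8.25 and 8.20, and the difference between the groups was −1.77 (adjusted p = 0.0901), and neither the mean of probe sets nor robust variance kept this call. A second probe set gave −0.33. All 5 values of day 14 lie below 5.681, among the dimmest genes, so that the size of the fall is uncertain. Inhbc fell by 1.06 (adjusted p = 0.022) and Inhbe by 1.58 (adjusted p = 0.0972), both chains made mostly in liver; for Inhbe rat 769 at 9.86 lay above all other rats of day 14, and the call was kept in 1 of 10 fits without 1 rat. Angptl8, an inhibitor of lipoprotein lipase that feeding raises, fell by 0.67 (adjusted p = 0.056). The follistatins Fst (−0.09) and Fstl3 (−0.08), which bind activins, were not called.

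Cldn1, a strand protein of tight junctions, was at 8.52, 9.25, 8.02, 7.53 and 7.62 at day 4 and at 6.6, 6.30, 6.61, 7.27 and 6.99 at day 14 (log2 change −1.44, standard error 0.30, adjusted p = 0.026). Group 2 had means of 10.15 and 10.22, so that group 5 lay 1.96 below it at day 4 and 3.47 below it at day 14, and the difference between the groups was −1.5 (adjusted p = 0.0616). All 3 probe sets of Cldn1 fell, by 1.44, 1.55 and 1.38. Cldn2, a claudin that forms pores, fell by 1.06 (adjusted p = 0.0679), Tjp3 by 0.40 and the connexin Gjb1 by 0.24; Cldn2 and Tjp3 were kept in 4 and 1 of 10 fits without 1 rat. The other 10 of 14 junction genes were not called, and the median was −0.21 (0.03 in group 2). Paqr9, a membrane receptor of the adiponectin receptor family, was at 9.95, 10.65, 10.05, 9.74 and 9.88 at day 4 and at 8.42, 8.28, 8.39, 8.90 and 8.10 at day 14 (log2 change −1.64, standard error 0.18, adjusted p = 0.00355). Slc13a4, a carrier of sulfate, was at 10.10, 10.33, 9.14, 8.65 and 8.55 at day 4 and at 7.67, 7.66, 7.31, 8.50 and 6.46 at day 14 (log2 change −1.83, standard error 0.41, adjusted p = 0.0327; difference from group 2 −2.15, adjusted p = 0.0837). Slc22a8, the organic anion carrier OAT3, had the largest fall of all called genes, though with overlap: 11.45, 11.55, 11.08, 9.68 and 10.16 at day 4 against 10.22, 8.63, 7.28, 7.91 and 6.93 at day 14 (log2 change −2.59, standard error 0.57, adjusted p = 0.0314). Group 2 stayed between 11.32 and 11.69 on both days (difference from group 2 −2.69, adjusted p = 0.0506). Nrep, a small protein named for regenerating neurons, fell by 1.89 (standard error 0.31, adjusted p = 0.0144), and Hdhd3 by 1.42 (standard error 0.24, adjusted p = 0.0154); for Nrep the difference in group 2 was −0.80 and the groups did not differ by the test (−1.09, adjusted p = 0.28).

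**Figure D4:**
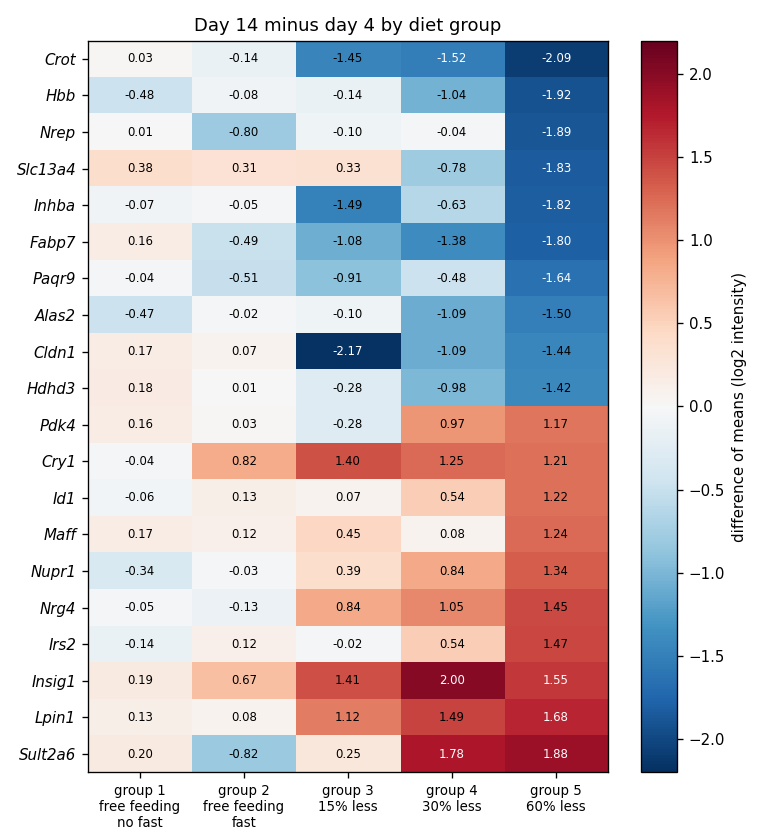
Day 14 minus day 4 difference of group means (log2 intensity, colour and number) for the 10 largest rises and the 10 largest falls without overlap in group 5, in the 5 diet groups (columns). Crot reads −1.45 in group 3, −1.52 in group 4 and −2.09 in group 5 against 0.03 and −0.14 in the freely fed groups, while Hbb reads −0.14, −1.04 and −1.92 in groups 3 to 5.

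Of 24 measured genes of folding and secretion in the endoplasmic reticulum, 9 fell, 0 rose and 15 were not called; 21 had a negative difference, and the median was −0.20 (−0.02 in group 2). Creld2 fell by 0.66 (adjusted p = 0.0289), Hyou1 by 0.48, Sdf2l1 and Manf by 0.47 each, Pdia4 by 0.43 and Hspa5 (BiP), the main chaperone there, by 0.37 (adjusted p = 0.0301). Pdia6 fell by 0.27, Calr by 0.26 and Pdia3 by 0.23. Creld2 and Hspa5 kept the call in all 10 fits without 1 rat, and the other 7 in 2 to 8 of them. None of the 9 was called in the test of the difference from group 2. In the list of cytosolic heat shock genes, which also holds the mitochondrial Hspd1 and Hspe1, Hspa1a rose by 1.05 (adjusted p = 0.0763) and 14 of 15 were not called. Ribosomal proteins had small positive differences in all 32 measured members, from 0.04 to 0.25, with 4 called, and a median of 0.17 against 0.01 in group 2. In the proteasome 24 of 32 were negative with a median of −0.11, and Psma4 (0.29) and Psmc2 (0.20) fell by these amounts. No gene of oxidative phosphorylation was called of 42 measured (limma; 8 had an unadjusted p under 0.05, and the differences ran from −0.09 to 0.24).

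Of 19 measured interferon-stimulated genes, 5 fell and 14 were not called; all 19 had a negative difference, and the median was −0.37 (−0.17 in group 2). Rsad2 (viperin), which blocks viral growth, was at 7.19, 7.61, 7.48, 7.82 and 6.91 at day 4 and at 6.48, 6.70, 6.54, 6.36 and 6.13 at day 14 (log2 change −0.96, standard error 0.16, adjusted p = 0.0149). Usp18, which removes the ubiquitin-like Isg15, fell by 1.26 (standard error 0.32, adjusted p = 0.0567), Isg15 by 0.61, the peptide carrier Tap1 by 0.52 and Ifit2 by 0.48. No interferon gene was called in the test of the difference between the groups. Of 18 markers of T and NK cells 1 was called, Lck, which fell by 0.20 (adjusted p = 0.0727; kept in 3 of 10 fits without 1 rat), and 16 had a negative difference. The mean over the list ran from 6.06 to 6.32 in the rats of day 4 and from 5.98 to 6.14 in those of day 14, with overlap, and the part of these cells in the interferon genes was not tested. In whole tissue, fewer cells of a type and less RNA per cell cannot be told apart.

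Of 6 measured markers of red cells, Hbb and Alas2 fell, and the median of the list was −0.13 (−0.04 in group 2). Hbb, the β chain of haemoglobin, was at 13.21, 12.67, 13.32, 12.90 and 12.59 at day 4 and at 11.32, 10.41, 11.63, 11.68 and 10.04 at day 14 (log2 change −1.92, standard error 0.30, adjusted p = 0.0128, a 3.79-fold fall). Alas2, an enzyme of heme synthesis in red cells, was at 8.08, 7.35, 8.11, 7.56 and 7.21 at day 4 and at 5.81, 6.23, 6.6, 6.11 and 6.09 at day 14 (log2 change −1.5, standard error 0.19, adjusted p = 0.00663). Group 2 stayed between 12.78 and 13.63 for Hbb and between 7.57 and 8.80 for Alas2, and both were called in the test of the difference, at −1.84 (adjusted p = 0.0243) and −1.47 (adjusted p = 0.0252). The globin Hba-a3, outside the marker list and chosen after its values were seen, fell by 1.23 (adjusted p = 0.022). The globins are near copies of one another and the probes may read several. The other 4 red cell markers, Ahsp (−0.22), Slc4a1 (0.07), Hemgn (−0.04) and Epb42 (−0.02), were not called, and the mean over the 6 markers ran from 6.82 to 7.16 at day 4 and from 6.22 to 6.62 at day 14. In the heme pathway of all cells Fech fell by 0.36 and Cpox by 0.32, and Hmox1, which breaks heme down, rose by 0.61 (adjusted p = 0.0519). How much blood each liver held was not measured here.

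Of the markers of other cells, 0 of 10 for Kupffer cells, 0 of 6 for bile ducts and 0 of 8 for B cells were called (limma, adjusted p under 0.1). Of these, 3, 0 and 0 had an unadjusted p under 0.05. Among all genes 3.9% were called higher and 2.81% lower, and lists this short can hold no call at such shares. The counts therefore do not show that these cells were unchanged. In the endothelium Ehd3 rose by 0.59 (adjusted p = 0.0733; 0.46 in group 2) and all 11 markers were positive, with a median of 0.15 against 0.10 in group 2, and of 6 neutrophil markers S100a9 fell by 0.42 (adjusted p = 0.0965). Among 17 genes of stellate cells and fibroblasts Lox and Col1a1 fell. Lox, which crosslinks collagen, was at 4.81, 9.56, 7.45, 8.26 and 7.67 at day 4 and at 5.09, 4.64, 5.32, 5.64 and 5.91 at day 14 (log2 change −2.23, standard error 0.67, adjusted p = 0.0952), with rat 741 of day 4 as low as the rats of day 14. The call for Lox was kept in 2 of 10 fits without 1 rat. Its difference in group 2 was 1.16, and the difference between the groups was −3.39 (adjusted p = 0.0717), the lowest among the genes called there; Col1a1 fell by 0.36. Hepatocyte markers were called in 1 of 9, Apoa1, which fell by 0.62 (adjusted p = 0.00978; difference from group 2 −0.62, adjusted p = 0.0173), and 8 of the 9 had a negative difference. The mean over these markers ran from 13.85 to 13.87 in the rats of day 4 and from 13.74 to 13.79 in those of day 14, without overlap, and from 13.82 to 13.89 in group 2 over both days. This mean includes Apoa1, which had by far the largest difference. The other 8 markers ran from −0.10 (Apob and Hnf4a) to 0.18 (Cps1), so the mean does not show a fall of hepatocyte markers in general.

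Of 19 measured genes of serine, glycine and methionine metabolism, 4 rose, 1 fell and 14 were not called. Mthfd1, which turns over folate one-carbon units, was at 11.51, 11.41, 11.57, 11.82 and 11.59 at day 4 and at 12.43, 12.30, 12.52, 12.25 and 12.30 at day 14 (log2 change 0.78, standard error 0.08, adjusted p = 0.00355; difference from group 2 0.45, adjusted p = 0.0754). Nnmt, which methylates nicotinamide, rose by 1.02 (adjusted p = 0.0921), Gnmt, which methylates glycine, by 0.50 (adjusted p = 0.0336; 0.47 in group 2) and Ahcy by 0.32, and Shmt2 fell by 0.36. Of 31 genes of amino acid degradation 5 rose and 1 fell, with a median of 0.17 against 0.20 in group 2. Got1, the cytosolic aspartate transaminase, rose by 0.94 (adjusted p = 0.0666) with a difference of 0.78 in group 2, and Gls2 rose by 0.42 (0.40 in group 2) and Haao by 0.30 (0.14 in group 2); the rise of Gpt given above stood beside 0.47 in group 2. Kynu, kynureninase, fell by 1.30 (standard error 0.25, adjusted p = 0.0206; difference from group 2 −1.22, adjusted p = 0.0468). In the urea cycle the ornithine carrier Slc25a15 rose by 0.44 (adjusted p = 0.0959), and 9 of 10 were not called; the median was 0.11 against 0.16 in group 2.

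**Figure D5:**
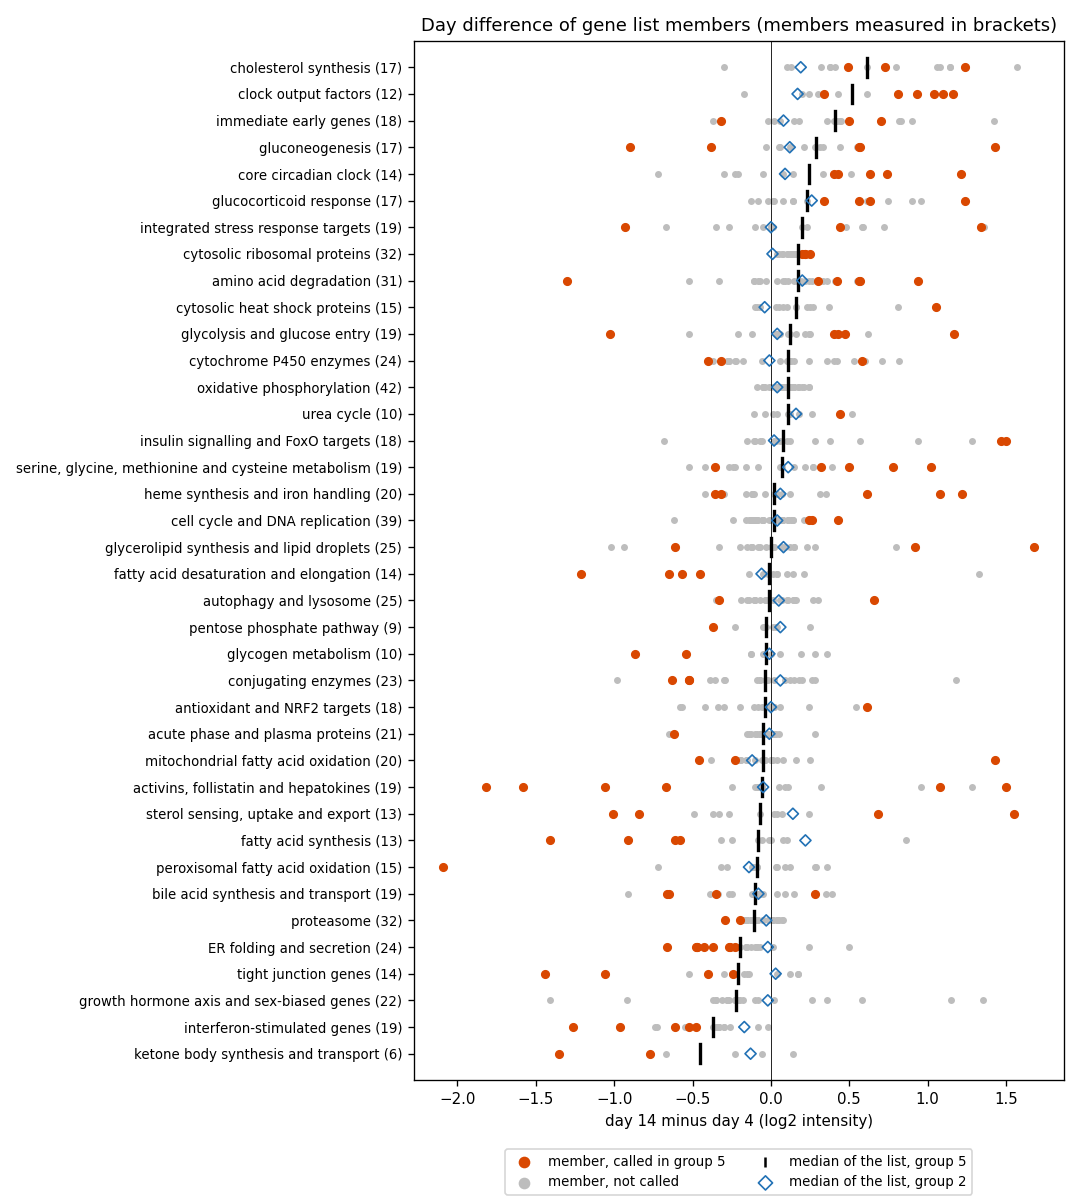
Day 14 minus day 4 difference (horizontal, log2 intensity) of the members of each gene list in group 5; orange points were called and grey ones were not, the black bar is the median of the list in group 5 and the open diamond its median in group 2. Cholesterol synthesis (median 0.61) and clock output factors (0.52) lie at the top, ketone body genes (−0.45) and interferon-stimulated genes (−0.37) at the bottom, and most list medians lie near 0.

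The calls in other lists are given here beside shares of 3.9% of all genes higher and 2.81% lower in group 5. No gene of the growth hormone axis and of sex-biased expression was called in group 5 of 22 measured (limma; 10 had an unadjusted p under 0.05; median −0.22), although Bcl6 (−1.41, adjusted p = 0.205) and Cish (1.35, adjusted p = 0.169) had large differences with a wide spread; Bcl6 had −2.48 in group 2, also not called. Of 24 genes in the list of cytochrome P450 enzymes, Cyp4b1 rose by 0.58, Cyp2c22 fell by 0.40 and Cyp4f1 by 0.32. That list also holds the reductase Por and the factors Ahr, Nr1i2 and Nr1i3. Of 17 measured genes of the glucocorticoid response, 4 rose and 0 fell, Gadd45b by 1.24 (adjusted p = 0.076) and Per1, Tat and Klf9 as given above. The median of this list was 0.23 against 0.26 in group 2, and no member was called in the test of the difference. Of the cell cycle genes Cdkn1b, an inhibitor of division, rose by 0.43 (adjusted p = 0.0287), Pcna by 0.26 and Bub1 by 0.24, and 36 of 39 were not called. The autophagy gene Gabarapl1 rose by 0.66 (standard error 0.11, adjusted p = 0.0149; difference from group 2 0.79, adjusted p = 0.0107), and Sqstm1, the cargo receptor of autophagy, fell by 0.33 (adjusted p = 0.0888).

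For some genes called in the test of the difference, the day difference was larger in size in group 2 than in group 5. Rab30, a small GTPase of the Golgi, had a difference of 0.86 in group 5 (adjusted p = 0.234) and −0.96 in group 2, and the difference between the groups was 1.82 (adjusted p = 0.083). Ppp1r3b was at 10.45, 10.54, 10.61, 9.61 and 10.22 at day 4 and at 8.79, 9.88, 9.41, 9.36 and 9.64 at day 14 in group 5, while group 2 went from a mean of 8.53 to 9.62 (difference 1.09), so that the groups differed by −1.95 (adjusted p = 0.0648). Jam3, the gene called in group 2, had −0.38 (adjusted p = 0.0491).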

How the data were processed

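Each of 49 livers was hybridised to its own Affymetrix rat expression array. Per the labels, the authors ran quality control in Expression Console and RMA in R 3.0.1 (affy 1.38.1); the deposited intensity values are linear and rounded to whole numbers. RMA makes the distribution of all arrays alike and so hides a shift of all genes. Here their log2 was taken. Of 31042 probe sets, 20826 had 1 gene symbol in GEO's platform annotation, and the one with the highest mean over all samples stood for its gene (14217 genes). The lowest intensity, 8, has a rounding step of 0.17 log2. Limma 3.58.1 (R 4.3.3; lmFit, eBayes, Benjamini-Hochberg) was fitted on the 10 rats of each group, and on 20 rats for the difference between groups; EBarrays, which the study used, was not. On simulated data for group 5, 99% of genes changed by log2 1 and 81% of those changed by log2 0.5 were found, with 19 false calls among 199. For group 2 these were 97% and 77%, with 35 false calls among 209. For the difference between groups they were 95% and 56%, with 26 false calls among 177. A gene not called in that test may therefore still differ between the groups. For group 2 and for the difference between groups, the share of false calls in these simulations was above the 0.1 of the threshold. The calls in these tests may thus hold more false ones than the threshold states. Principal components used Python 3.11.15 (numpy 2.4.6). Subject numbers differ in every group and pair no samples. The study housed its rats together, in groups or in stable pairs, and the labels do not say which rats shared a cage. Cages could therefore not be taken into account, and the p-values treat the rats of a day as independent. The comparison, the gene lists (from general knowledge) and the rule for named genes were chosen with earlier results of these data known. Named are the 10 largest rises and falls without overlap in group 5, the 5 largest and smallest differences between the groups, genes called in group 2, the members of each list with the largest differences, genes the study singled out, and, after their values were seen, other members of a list. Promoter stretches and gene starts come from RefSeq (GRCr8).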

Additional observations from a re-analysis of the deposited data

Results flagged for a closer look

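The day difference in group 5 differed from that in group 2, by the test of the difference itself (limma, adjusted p under 0.1), for 41 of the genes named above. It was more positive in group 5 for Sult2a6 (2.70), Igfbp1 (1.92), Rab30 (1.82), Nrg4 (1.58), Nupr1 (1.38), Irs2 (1.35), Maff (1.12), Id1 (1.10), Gabarapl1 (0.79), Pdha1 (0.48), Mthfd1 (0.45), with the difference of the log2 day differences in brackets. It was more negative for Lox (−3.39), Slc22a8 (−2.69), Slc13a4 (−2.15), Srebf1 (−2.05), Crot (−1.95), Ppp1r3b (−1.95), Hbb (−1.84), Inhba (−1.77), Abcg8 (−1.64), Cldn1 (−1.50), Alas2 (−1.47), Hdhd3 (−1.42), Thrsp (−1.39), Kynu (−1.22), Abcg5 (−1.18), Elovl5 (−1.17), Paqr9 (−1.12), Inhbc (−1.09), Bdh1 (−1.09), Gckr (−1.07), Cyp2c22 (−0.94), Atf5 (−0.87), Ldha (−0.83), Gpam (−0.83), Nat1 (−0.75), Tjp3 (−0.70), Apoa1 (−0.62), Shmt2 (−0.60), Slc16a1 (−0.59), Jam3 (−0.38). Of the 41 genes, 22 lost the call in at least 1 of 20 fits without 1 rat, among them Sult2a6, Igfbp1, Lox, Slc22a8, Nupr1 and Cldn1, and 21 at an adjusted p under 0.05.

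A rat stood apart from the other 4 of its group and day, by Dixon's test at the 95% level, in 35 of 620 sets of 5 rats, where chance gives about 1 in 20. The values that follow are log2 intensities. In group 2 at day 4 this was rat 726 for Cish (7.96), Psma4 (10.34), Psmc2 (11.50) and Scd (11.25), rat 727 for Cyp4f1 (12.57), Lpin1 (10.23) and Ppargc1a (7.91), rat 728 for Crot (12.35), Fech (10.99), Gabarapl1 (11.88), Hyou1 (10.34), Mthfd1 (10.80) and Rsad2 (8.25), rat 729 for Wee1 (6.43), and rat 730 for Nfil3 (8.92). In group 2 at day 14 this was rat 751 for Epb42 (4.32), Nat1 (10.14), Nr1d2 (8.08) and Slc13a4 (10.47), rat 752 for Gk (11.68) and Igfbp2 (9.80), rat 753 for Shmt2 (10.68), rat 754 for Hbb (12.78) and Mthfd1 (11.55), and rat 755 for Me1 (7.94). In group 5 at day 4 this was rat 741 for Lpin1 (8.78), rat 742 for Hemgn (4.39) and Igfbp2 (7.97), rat 743 for Fstl3 (6.30) and Haao (11.88), and rat 745 for Per1 (9.54). In group 5 at day 14 this was rat 767 for Isg15 (7.98) and Usp18 (8.81), rat 768 for Nfil3 (10.05), and rat 769 for Fgf21 (7.44).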

How the results depend on the processing

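No called direction of a named gene reversed under an alternative that measured it; genes among the dimmest 25% have no value without those genes, and uncalled differences near 0 changed sign (Fasn, −0.01, had 0.09 with the mean of probe sets). In group 5, an adjusted p under 0.05 left 297 genes higher and 199 lower, and a fold over 1.5 left 127 and 114; 1 fit of all 49 rats gave 1193 and 924, and array weights 1046 and 659. Leaving out 1 rat gave 243 to 943 higher and 168 to 555 lower; of the 954 called genes 408 were called without rat 742, 472 without rat 768 and 901 without rat 769. In group 2, the higher count was 0 with a fold over 1.5 and with quantile normalization again, and the fit of all 49 rats gave 31 higher and 8 lower; leaving out 1 rat gave 0 to 2 higher and 0 to 1 lower. For the difference between the groups, an adjusted p under 0.05 left 38 and 58 and a fold over 1.5 left 50 and 98; the fit of all 49 rats gave 273 and 408, quantile normalization again 200 and 186, and array weights 237 and 224, and leaving out 1 rat gave 38 to 176 higher and 60 to 220 lower. The cause of these shifts was not tested. With 5 rats a day, other rats on each day and no label of a batch, the day, the age and a batch cannot be told apart within group 5. Intensities of the dimmest 25% of genes say little about a change. No paired analysis was possible because the subject numbers of the groups and days are all different.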
